A study of Schizosaccharomyces pombe with 9 samples.

Results

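Fission yeast, Schizosaccharomyces pombe, packages its DNA around 4 core histones, and 10 genes that encode them were followed here across the 3 strains of the series. They are hht1, hht2 and hht3 for histone H3, hhf1, hhf2 and hhf3 for histone H4, hta1 and hta2 for canonical H2A, htb1 for H2B, and pht1 for the H2A variant H2A.Z. The genes were chosen by these names among the 6986 features of the count table, and all 10 were among the 5951 features with enough counts to be tested. T4A stands below for the parental strain rpb1-CTD-T4A29, whose RNA polymerase II is mutated at Thr4 of the CTD, the repeat tail of the subunit Rpb1. STF6 and STF9 are suppressor mutants of that strain, so every library has a T4A background, and the mutations behind the suppression are not named in the labels. Cells of all 3 groups grew vegetatively at 30 °C in YES, a rich medium, and were taken in log phase. Each group had 3 libraries made from poly(A)+ RNA and a single lab strain number, so a difference between groups is a difference between these strains. The libraries are described as replicate experiments and nothing says that they came from separate cultures, so p-values measure the spread between these libraries.

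A nucleosome holds an H3–H4 tetramer and a pair of H2A–H2B dimers, so the cell needs the 4 proteins in set proportions. Most histone mRNA is made in S phase, when new DNA is packaged, while H2A.Z is placed into existing nucleosomes by the SWR1 remodelling complex. Yeast histone mRNAs carry poly(A) tails, unlike most animal ones, and are therefore captured by a poly(A)+ protocol. In bulk RNA, a larger share of cells in S phase and more histone mRNA per cell cannot be told apart.

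The count totals ran from 15374453 to 22909747 per library, and the 10 genes together took 163209 to 233797 counts, about 1% of each library. The first principal component of all genes held 65.7% of the variance and separated T4A from both mutants, with T4A replicate 2 farthest out. TMM scaling, which sets libraries on a common level through the bulk of the genes, gave T4A libraries factors of 0.978, 0.859 and 1.09, while those of the 6 mutant libraries ran from 1.00 to 1.04. T4A replicate 2 therefore stands apart, and results whose call turns on it are given with and without it. Moves by over 1.5 times without it are given for some genes only. Levels below are TMM-scaled CPM, counts relative to the library total, and changes are log2 fold changes ± SE from edgeR's quasi-likelihood test with p-values adjusted by the Benjamini-Hochberg method over all 5951 features. Copies of the same histone are near-identical in coding sequence and share reads, so how the counting divided reads among them is uncertain, and sums over copies are given as well. Levels are not compared between genes, since the CPM values are not per length.

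Of the 10 histone genes followed here, that of H2B differed most from T4A in both mutants. The level of htb1 (SPCC622.09), the H2B gene, was 971, 1240 and 942 CPM in T4A replicates 1, 2 and 3. It was 1605, 1563 and 1585 CPM in STF6, and 1584, 1614 and 1497 CPM in STF9. All 6 mutant libraries lay above all 3 T4A libraries, and the highest T4A library was replicate 2. The rise was 1.51-fold in STF6 (log2 0.59 ± 0.11, n = 3 against 3, edgeR adjusted p = 0.00112) and 1.49-fold in STF9 (0.57 ± 0.11, adjusted p = 0.00135). The 95% confidence intervals of the log2 change were 0.36 to 0.83 and 0.34 to 0.81. The gene passed the test under all 13 alternatives in each comparison, with adjusted p between 1.85e-08 and 0.00891 in STF6 and between 3.12e-08 and 0.0101 in STF9. Its rank by p among the 5951 features was 572 in STF6 and 624 in STF9, so many other features had smaller p-values.

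**Figure D1:**
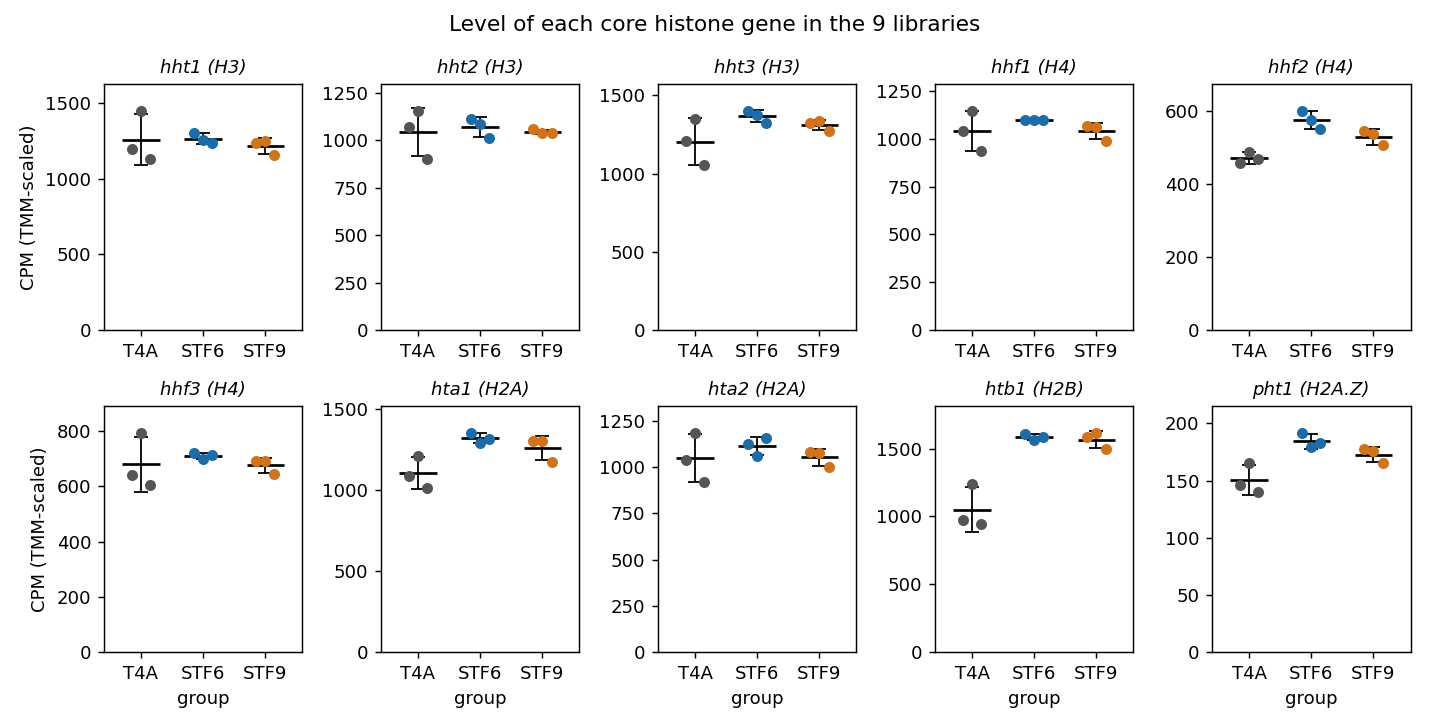
Level of each of the 10 histone genes in every library, in TMM-scaled CPM on the y axis, by group on the x axis. Points are libraries in replicate order, horizontal bars are group means and error bars are SD over 3 libraries; the mutant points of htb1, at 1497 CPM or more, lie above all T4A points, at 1240 CPM or less.

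The canonical H2A genes moved less than htb1. The level of hta1 (SPCC622.08c) was 1086, 1207 and 1011 CPM in T4A, 1350, 1292 and 1316 CPM in STF6, and 1303, 1300 and 1171 CPM in STF9. All STF6 libraries lay above T4A, and STF9 replicate 3 fell below T4A replicate 2. In STF6 hta1 rose 1.20-fold (log2 0.26 ± 0.09, edgeR adjusted p = 0.0406), a call that was lost when any single STF6 library was left out (adjusted p = 0.129, 0.0937 and 0.120 without replicates 1, 2 and 3) and without T4A replicate 1 (adjusted p = 0.115). The STF9 difference of 0.19 ± 0.09 did not pass (adjusted p = 0.106). The other H2A gene, hta2 (SPAC19G12.06c), had 1040, 1183 and 921 CPM in T4A, 1122, 1060 and 1157 CPM in STF6, and 1083, 1073 and 999 CPM in STF9. Its groups overlapped, with log2 differences of 0.09 ± 0.10 in STF6 and 0.01 ± 0.10 in STF9 (adjusted p = 0.511 and 0.969).

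The H2A.Z gene pht1 (SPBC11B10.10c) had 146, 165 and 140 CPM in T4A, 192, 179 and 182 CPM in STF6, and 177, 176 and 165 CPM in STF9. The STF6 libraries all lay above T4A, and the lowest STF9 library was level with the highest T4A library. The rise in STF6 was 1.23-fold (log2 0.29 ± 0.08, edgeR adjusted p = 0.0103). It was lost without STF6 replicate 1 (adjusted p = 0.0545). In STF9 the difference was 0.20 ± 0.08, just short of the threshold (adjusted p = 0.0530).

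Among the H4 genes, hhf2 was the member that rose in STF6. The level of hhf2 (SPBC8D2.03c) was 457, 488 and 468 CPM in T4A, 600, 575 and 551 CPM in STF6, and 546, 536 and 505 CPM in STF9. Both mutants lay wholly above T4A. The rise in STF6 was 1.22-fold (log2 0.29 ± 0.08, edgeR adjusted p = 0.00960), and it too was lost without STF6 replicate 1 (adjusted p = 0.0515). In STF9 the difference was 0.17 ± 0.08 and did not pass (adjusted p = 0.0865).

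The other H4 genes overlapped between groups. The level of hhf1 (SPAC1834.03c) was 1041, 1145 and 939 CPM in T4A, 1096, 1098 and 1100 CPM in STF6, and 1067, 1063 and 990 CPM in STF9. Both mutants lay within the span of T4A, with differences of 0.08 ± 0.09 in STF6 and -0.0024 ± 0.09 in STF9. The level of hhf3 (SPBC1105.12) was 641, 792 and 606 CPM in T4A, 720, 697 and 713 CPM in STF6, and 692, 691 and 645 CPM in STF9. T4A replicate 2 exceeded every mutant library for both genes, and hhf3 differed by 0.06 ± 0.10 in STF6 and -0.01 ± 0.10 in STF9.

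No H3 gene passed the test in either mutant. The level of hht1 (SPAC1834.04) was 1194, 1447 and 1131 CPM in T4A, 1303, 1259 and 1233 CPM in STF6, and 1236, 1253 and 1156 CPM in STF9. The level of hht2 (SPBC8D2.04) was 1069, 1153 and 903 CPM in T4A, 1112, 1083 and 1013 CPM in STF6, and 1056, 1040 and 1035 CPM in STF9. For both genes every mutant library lay within the T4A range, and the log2 differences were 0.01 ± 0.10 and 0.04 ± 0.10 in STF6 and -0.05 ± 0.10 and 0.0030 ± 0.10 in STF9. The level of hht3 (SPBC1105.11c) was 1210, 1350 and 1053 CPM in T4A, 1400, 1373 and 1324 CPM in STF6, and 1326, 1333 and 1272 CPM in STF9. It stood highest relative to T4A among the H3 genes, at 0.18 ± 0.10 in STF6 and 0.12 ± 0.10 in STF9, but T4A replicate 2 overlapped both mutants and neither difference passed (edgeR adjusted p = 0.161 and 0.326). These intervals do not show equal levels: the 95% interval of hht1 in STF6 ran from -0.21 to 0.23 on the log2 scale.

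**Figure D2:**
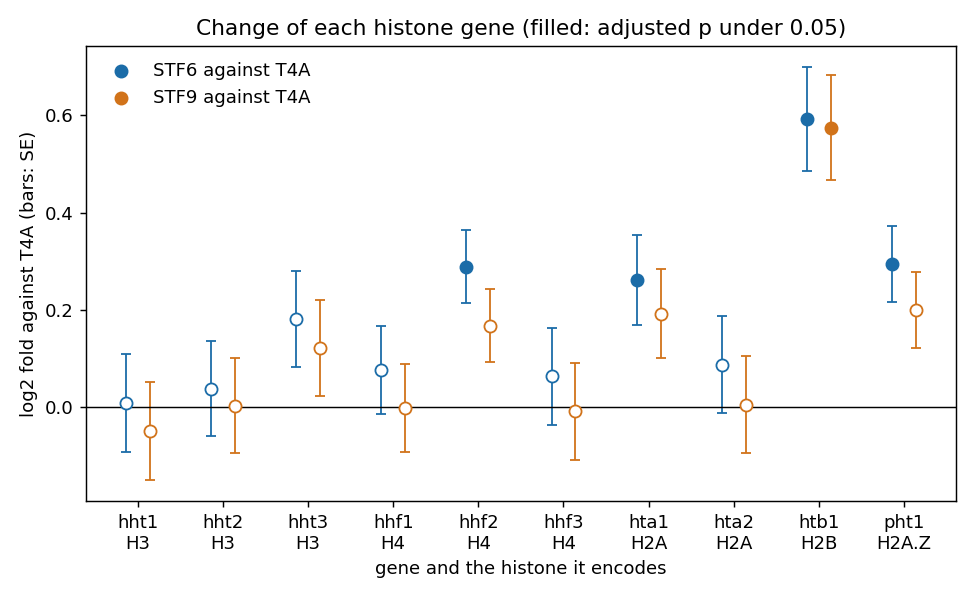
Log2 fold change of each histone gene against T4A on the y axis, by gene on the x axis, for STF6 and STF9. Bars are SE from the edgeR fit and filled points have an adjusted p under 0.05: hhf2, hta1, htb1 and pht1 in STF6, and htb1 in STF9.

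Counted over the set, 4 of the 10 genes were higher in STF6, namely hhf2, hta1, htb1 and pht1, and none was lower (edgeR; 4 of 10 had an unadjusted p under 0.05, and DESeq2 also called 4 higher and 0 lower). Of all features tested, 19.2% were called higher and 19.2% lower in STF6. In STF9 htb1 alone passed as higher and none was lower (3 of 10 had an unadjusted p under 0.05, and DESeq2 called 1), against 23% of all features called higher and 21.3% lower. In either direction 38.4% of all features were called in STF6 and 44.2% in STF9, so 4 of 10 was close to the background in STF6 and 1 of 10 was below it in STF9. The median log2 difference of the 10 genes was 0.13 in STF6 beside 0.03 for all features, and 0.06 in STF9 beside 0.04. The direction was above 0 for all 10 genes in STF6 and for 7 in STF9. Groups of libraries did not overlap for 4 genes in STF6, all wholly above T4A, and for 2 in STF9, hhf2 and htb1, also above. Of all features, 25.7% lay wholly above and 24.5% wholly below T4A in STF6, and 28.7% and 25.3% in STF9. The authors' deposited tables gave htb1 a log2 fold change of 0.55 in STF6 and 0.53 in STF9 and put 3 of the 10 genes in STF6 and 1 in STF9 under an adjusted p of 0.05, beside 43.3% and 51.3% of the features with an adjusted p.

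How many histone genes passed turned on T4A replicate 2 and on the scaling. Without T4A replicate 2 the count was 7 of 10 in STF6, with hht3, hhf3 and hta2 added, and 5 of 10 in STF9, namely hht3, hhf2, hta1, htb1 and pht1. In that setting 23.3% and 26% of all features were called higher. Without STF6 replicate 1 htb1 alone passed in STF6. In that setting 753 of all features were called higher, against 1141 in the full fit. With library size alone in place of TMM, 8 genes passed in STF6, all but hht1 and hht2, and 5 in STF9, where 17.4% and 17.5% of all features were called higher.

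The summed histone mRNA shows the same dependence. As a share of all counts, with no scaling, the 10 genes took 0.866%, 0.874% and 0.885% of the T4A libraries, 1.06%, 1.02% and 1.06% of STF6, and 1.02%, 1.02% and 0.958% of STF9. The T4A libraries lay within a narrow span and below all mutant libraries. The means were 0.875% ± 0.00941 in T4A, 1.05% ± 0.0228 in STF6 and 0.997% ± 0.0342 in STF9 (SD, n = 3), which puts the mutants 19.6% and 13.99% above T4A. After TMM scaling the sums were 8855, 10170.5 and 8114 CPM in T4A, 10498.5, 10179 and 10173.5 CPM in STF6, and 10070, 10077 and 9436 CPM in STF9. T4A replicate 2 then lay above all STF9 libraries and just under the lowest STF6 library, and the means stood 13.7% and 9.01% above T4A.

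**Figure D3:**
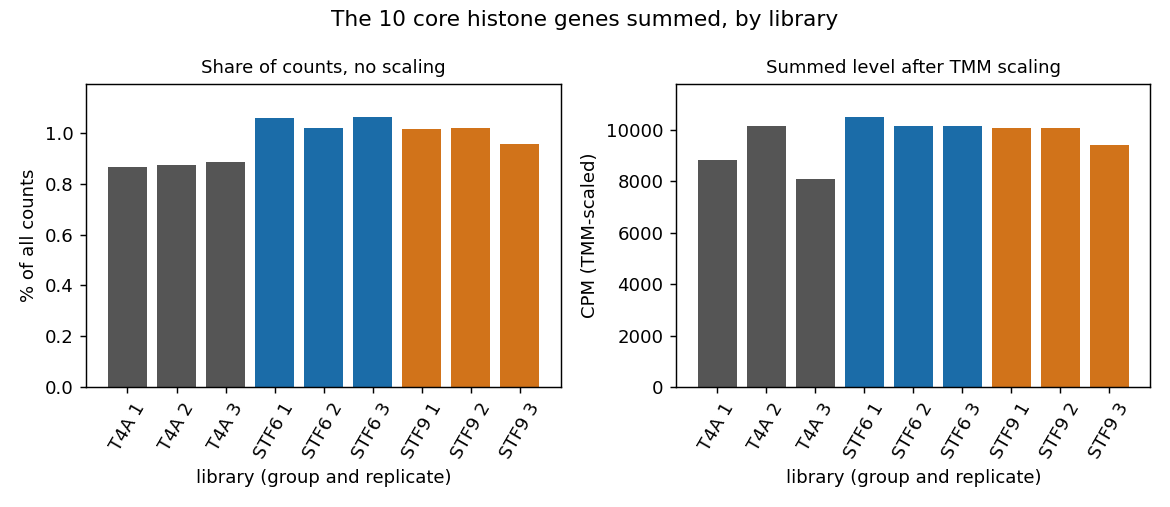
Sum of the 10 histone genes in each library, as a percentage of all counts on the left and in TMM-scaled CPM on the right. The 3 T4A bars lie between 0.866% and 0.885% on the left and between 8114 and 10170.5 CPM on the right, where replicate 2 reaches the mutant libraries.

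The spread between T4A libraries followed the scaling in single genes as well. In TMM-scaled CPM the coefficient of variation over the T4A libraries was 15.6% for htb1, 13.3% for hht1 and 12.5% for hta2. Without scaling it was 5.82%, 3.35% and 0.692%. The order was opposite for hhf2, at 3.31% with scaling and 10.3% without. In unscaled CPM, htb1 ran from 950 to 1065 in T4A, from 1568 to 1654 in STF6 and from 1520 to 1632 in STF9, and its log2 change was 0.67 ± 0.05 and 0.64 ± 0.05. Without scaling all 10 genes lay wholly above T4A in STF6, and 6 did in STF9, where 25.3% and 26.3% of all features did so.

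Sums over copies do not depend on how counted reads were divided between near-identical genes, but the H3, H4 and H2A sums would be too low if shared reads were discarded, which the sources used here do not say. H2B had the largest difference from T4A among the 5 sums. The H3 sum was 3504 ± 433 CPM in T4A, 3699 ± 123 in STF6 and 3569 ± 91.6 in STF9 (SD, n = 3), or 5.59% and 1.86% above T4A. The H4 sum was 2192 ± 211, 2383 ± 28.3 and 2244 ± 90.6 CPM, or 8.71% and 2.38% above. These differences were smaller than the SD of T4A. The canonical H2A sum was 2149 ± 230, 2432 ± 70.0 and 2310 ± 121 CPM, or 13.2% and 7.49% above T4A. For H2A.Z, a single gene, the means of 150 ± 13.4, 184 ± 6.40 and 173 ± 6.63 CPM put the mutants 22.5% and 14.8% above T4A. H2B, also a single gene, stood 50.7% and 48.9% above T4A.

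Ratios within a library do not depend on scaling. The htb1 and hta1 genes are divergent neighbours, which encode the partners of the H2A–H2B dimer. The count ratio of htb1 to hta1 was 0.894, 1.03 and 0.932 in T4A, 1.19, 1.21 and 1.20 in STF6, and 1.22, 1.24 and 1.28 in STF9. The ratio was higher in every mutant library than in any T4A library, by 1.26-fold in STF6 and 1.31-fold in STF9 (two-sided exact permutation p = 0.1 for each). The ratio of H2B to both canonical H2A genes together was 1.34-fold and 1.39-fold that of T4A, and the ratio of H2B to the H4 sum was 1.39-fold and 1.46-fold that of T4A, again with no overlap. The ratio of the H3 sum to the H4 sum overlapped between all groups, with values from 1.51 to 1.63 over the 9 libraries. Across the 27 ratio comparisons made, 3 libraries against 3 allow a two-sided exact permutation p of 0.1 at the least, which adjusts to 0.18, so none can pass 0.05.

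**Figure D4:**
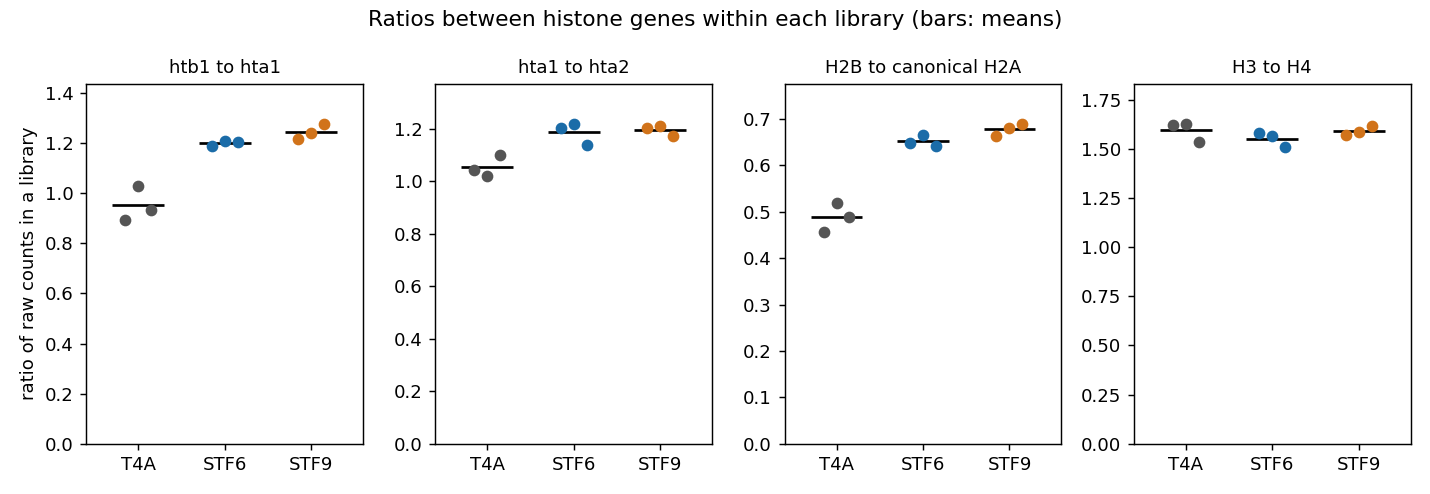
Ratio of raw counts between histone genes or sums in each library on the y axis, by group on the x axis; points are libraries and bars are means. The htb1 to hta1 ratio is at most 1.03 in T4A and at least 1.19 in both mutants, while the H3 to H4 ratio overlaps between groups.

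The H3 and H4 genes lie as 3 divergent pairs, hht1 with hhf1, hht2 with hhf2 and hht3 with hhf3, in the RefSeq annotation. The ratio of hht1 to hhf1 was 1.15 to 1.26 in T4A, 1.12 to 1.19 in STF6 and 1.16 to 1.18 in STF9, so the groups overlapped. For hht2 to hhf2 the ratio was 2.34, 2.36 and 1.93 in T4A, and 1.85, 1.88 and 1.84 in STF6, all below T4A. In STF9 this ratio was 1.93, 1.94 and 2.05 and overlapped T4A. The ratio of hht3 to hhf3 was 1.89, 1.70 and 1.74 in T4A and 1.92, 1.93 and 1.97 in STF9, all above T4A, while STF6 at 1.94, 1.97 and 1.86 overlapped it. Of the canonical H2A genes, hta2 has no divergent histone partner, and the ratio of hta1 to hta2 was 1.02 to 1.10 in T4A, 1.14 to 1.22 in STF6 and 1.17 to 1.21 in STF9. Both mutants lay wholly above T4A in this ratio.

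Within each histone, the copies' shares of the counts differed between groups by at most a few percentage points, subject to how shared reads were divided. Of the H3 counts, hht3 took 34.4% ± 0.407 in T4A, 36.9% ± 0.199 in STF6 and 36.7% ± 0.0592 in STF9 (SD, n = 3), with no overlap between T4A and either mutant. The share of hht1 was 35.9% ± 1.30, 34.2% ± 0.328 and 34.0% ± 0.595, and its groups overlapped. That of hht2 was 29.7% ± 0.897, 28.9% ± 0.452 and 29.3% ± 0.613, with STF6 just below T4A and STF9 overlapping it. Of the H4 counts, hhf2 took 21.6% ± 1.59, 24.1% ± 0.773 and 23.6% ± 0.150. The T4A library with the highest hhf2 share, 23.3%, lay just under the lowest STF6 library, so the gap there is small. The share of hhf1 was 47.5% ± 1.06, 46.1% ± 0.631 and 46.3% ± 0.0943. Both mutants lay wholly below T4A, whose lowest library, at 46.6%, was just above the highest STF6 library, at 46.5%. That of hhf3 was 30.9% ± 1.52, 29.8% ± 0.376 and 30.1% ± 0.0752, and its groups overlapped. Of the canonical H2A counts, hta1 took 51.3% ± 0.936 in T4A, 54.2% ± 0.917 in STF6 and 54.5% ± 0.416 in STF9, with no overlap. These shares were compared as values, with no test.

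The mutants were also compared with each other. No histone gene differed between STF9 and STF6 at an adjusted p under 0.05 in edgeR, 0 of 10 had an unadjusted p under 0.05, and DESeq2 called 0. Of all features 0% were called in either direction, with 178 at an unadjusted p under 0.05. All 10 genes had a log2 difference below 0, from -0.12 for hhf2 to -0.02 for htb1, beside a median of 0.01 over all features. The libraries did not overlap for hhf1, hhf2, hhf3 and pht1, each wholly lower in STF9; of all features 7.36% lay wholly lower and 9.63% wholly higher. The count ratios of htb1 to hta1, hht2 to hhf2 and H2B to H4 lay wholly higher in STF9 than in STF6. They were higher by 1.04-, 1.06- and 1.05-fold (two-sided exact permutation p = 0.1 for each, adjusted 0.18). The other ratios overlapped between the mutants. The difference of htb1 was -0.02 ± 0.11, with a 95% interval from -0.25 to 0.21, so this fit cannot tell a difference within that interval from 0. Its SE rests on a spread estimated from all 9 libraries, T4A included. The coefficient of variation of htb1 was 15.6% in T4A, 1.31% in STF6 and 3.88% in STF9. A fit of only the 6 mutant libraries called 7 features higher and 10 lower in STF9, none of them a histone gene. Because both comparisons against T4A share the T4A libraries, their like values for htb1 are not independent of each other.

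Genes for proteins that regulate histone genes were read from the same libraries. Of the 6 regulators listed, 2 were higher in both mutants and none was lower. teb1, a Myb-like protein that binds a conserved box in histone promoters, had mean levels of 16.2 CPM in T4A, 22.8 in STF6 and 21.9 in STF9 and rose by 0.50 ± 0.11 and 0.44 ± 0.11 on the log2 scale (edgeR adjusted p = 0.00450 and 0.00880). hip1, a subunit of the HIRA complex that holds histone genes down outside S phase, rose by 0.39 ± 0.14 and 0.64 ± 0.14 (adjusted p = 0.0445 and 0.00393). The STF6 call of hip1 held under 7 of 13 alternatives, and its value was 0.23 without T4A replicate 2. Its HIRA partner slm9 differed by 0.13 ± 0.08 and 0.19 ± 0.08 and hip3 by -0.15 ± 0.10 in both, and none of these passed. Without T4A replicate 2, slm9 in STF9 was 0.20 ± 0.07 and passed (edgeR adjusted p = 0.0308). With a library left out, hip3 ran from -0.23 to -0.02 in STF6 and from -0.24 to -0.03 in STF9. ams2, the GATA-type activator of histone genes in S phase, did not pass in either mutant (0.03 ± 0.12 and -0.05 ± 0.12) and is named after its values were seen. Without T4A replicate 2 it was 0.22 ± 0.07 in STF6 and passed (edgeR adjusted p = 0.0163), and 0.14 ± 0.07 in STF9, which did not (adjusted p = 0.113). The list's median log2 difference was 0.11 in STF6 and 0.18 in STF9, to be read, as for the lists that follow, beside 0.03 and 0.04 for all features. The counts of this and the later lists stand beside 19.2% of all features called higher in STF6 and 23% in STF9. Called lower were 19.2% and 21.3%. With a library left out, 745 to 1410 of all features were called higher in STF6, against 1141 in the full fit. In STF9 807 to 1645 were, against 1368. Called lower were 905 to 1443 in STF6 and 814 to 1528 in STF9, against 1145 and 1265. List counts with a library left out are to be read beside these. The regulator count in STF6 was 1 without T4A replicate 1 and without each STF6 library in turn.

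Genes for the chaperones that carry histones were read next. Of 12 chaperone genes, 7 were higher in STF6 and 10 in STF9, and none was lower, with medians of 0.34 and 0.42. spt2, a chaperone of H3–H4 in transcribed genes, rose by 1.00 ± 0.14 and 1.23 ± 0.14 (edgeR adjusted p = 0.000189 and 3.78e-05), from a mean of 11.1 CPM in T4A to 22.4 in STF6 and 26.3 in STF9. cia1, the H3–H4 chaperone Asf1, rose by 0.62 ± 0.11 and 0.71 ± 0.11. nap1, a carrier of H2A–H2B dimers, rose by 0.51 ± 0.10 in both, and spt16, a subunit of the FACT complex, rose by 0.48 ± 0.12 and 0.64 ± 0.12. The other FACT subunit pob3 differed by 0.01 ± 0.10 in STF6 and did not pass; it is named after its values were seen. The count in STF9 was 6 with library size alone and 5 without STF9 replicate 2 or replicate 3.

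The gene of the centromeric H3 variant CENP-A, cnp1, rose by 0.72 ± 0.12 in STF6 and 0.61 ± 0.12 in STF9 (edgeR adjusted p = 0.000533 and 0.00158), from a mean of 15.7 CPM in T4A to 25.86 and 23.97. Of the 6 genes for CENP-A and its deposition, 2 were higher in both mutants and none was lower, with medians of 0.32 and 0.31. The other was mis16, a histone-binding protein needed to load CENP-A, at 0.45 ± 0.09 and 0.38 ± 0.09. The CENP-A chaperone gene scm3 (0.31 ± 0.15 and 0.22 ± 0.15) and mis19, also called eic1 (0.33 ± 0.16 in both), did not pass. Without T4A replicate 3 the count in STF9 was 4.

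Of 12 genes of the SWR1 complex and Msc1, the machinery that places H2A.Z, 2 were higher in STF6 and 5 in STF9, and none was lower, with medians of 0.12 and 0.32. rvb2, an AAA ATPase also found in other remodellers, rose by 0.38 ± 0.14 and 0.58 ± 0.14 (edgeR adjusted p = 0.0428 and 0.00560), and the STF6 call held under 8 of 13 alternatives, with a value of 0.24 without T4A replicate 2. alp5, an actin-related subunit, rose by 0.41 ± 0.10 in STF6 and differed by 0.23 ± 0.10 in STF9, which did not pass. In STF9 rvb1 rose by 0.38 ± 0.09 and the ATPase gene swr1 by 0.48 ± 0.15, as did swc4 and arp6, which are named after their values were seen. The STF9 calls of swr1 and swc4 held under 9 of 13 alternatives and that of arp6 under 8; swr1 stood at 0.31 without T4A replicate 2. The count in STF6 was 4 without T4A replicate 3 and 1 without each STF6 library, and the count in STF9 was 3 with library size alone and 2 without STF9 replicate 2 or 3. Whether the lists differed between the mutants was not tested beyond single genes, and none of their genes passed between STF9 and STF6.

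Of 23 genes for histone-modifying enzymes, 9 were higher and 1 was lower in each mutant, with medians of 0.26 and 0.28. ubp8, which removes ubiquitin from H2B, rose by 0.58 ± 0.12 in both (edgeR adjusted p = 0.00264 and 0.00245). The deacetylase genes hst4 (0.38 ± 0.08 and 0.34 ± 0.08) and clr6 (0.37 ± 0.08 and 0.28 ± 0.08) rose, and so did elp3, the catalytic subunit of Elongator, at 0.48 ± 0.08 and 0.49 ± 0.08. The gene that fell was lsd2, named after its values were seen, at -0.40 ± 0.09 and -0.26 ± 0.09. Its STF9 call held under 8 of 13 alternatives: it was lost with library size alone, with only the 6 libraries compared, without STF9 replicate 2 or 3, and without T4A replicate 2, where the difference was -0.16 ± 0.07 (edgeR adjusted p = 0.0636). The STF9 call of clr6 held under 9 of 13. The number of higher genes was 5 without STF6 replicate 2 in STF6, and 5 without STF9 replicate 2 and 14 without T4A replicate 3 in STF9. Over all features, 754, 807 and 1645 were called higher in these settings.

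**Figure D5:**
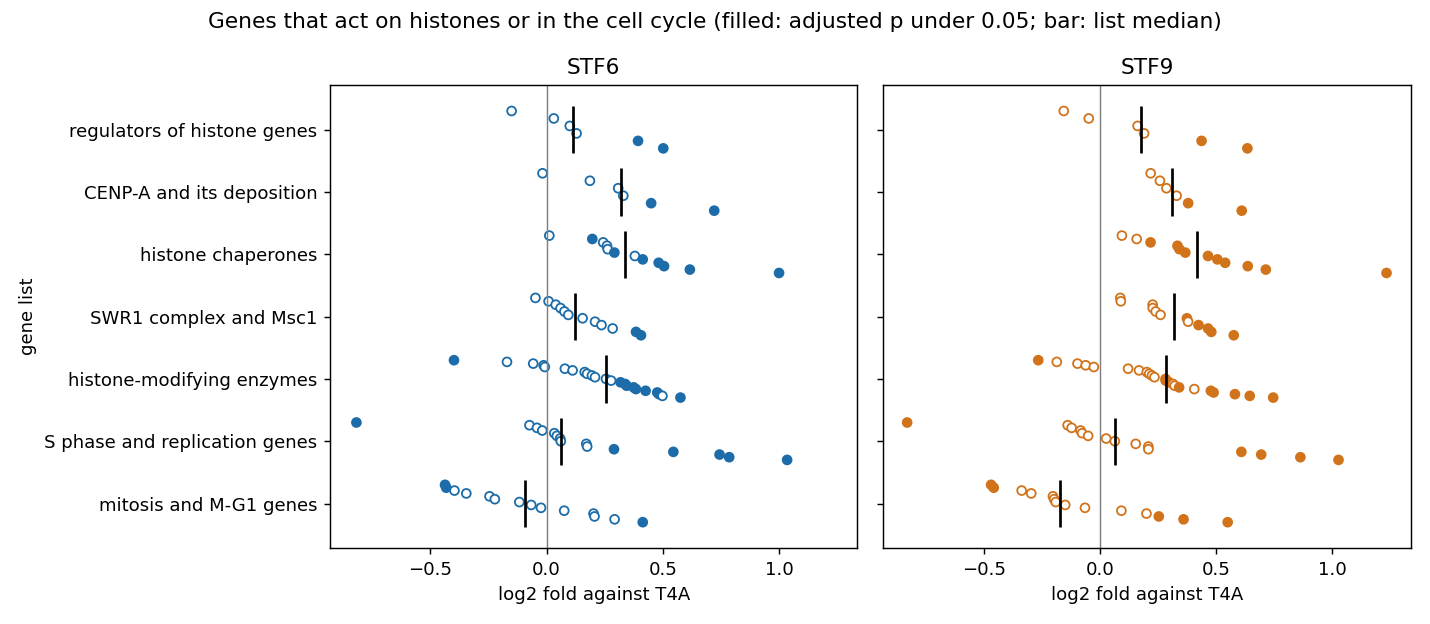
Log2 fold change against T4A on the x axis for the genes of 7 lists on the y axis, STF6 left and STF9 right. Each point is a gene, filled where the adjusted p is under 0.05, and black bars are list medians; all passing chaperone genes lie to the right of 0, while the S phase list has mcm6 at 1.03 and cdc22 at -0.82 in STF6.

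Cell cycle genes were read beside the histones, since histone mRNA follows S phase. Of 15 S phase and replication genes, 5 were higher and 1 was lower in STF6, and 4 were higher and 1 was lower in STF9, with medians of 0.06 in both. mcm6, a subunit of the replicative helicase, rose by 1.03 ± 0.08 in both (edgeR adjusted p = 1.59e-06 and 1.89e-06). pol1, the catalytic subunit of DNA polymerase alpha, rose by 0.79 ± 0.11 and 0.86 ± 0.11, cdc18, a loader of the helicase, by 0.74 ± 0.13 and 0.69 ± 0.13, and mcm7 by 0.55 ± 0.10 and 0.61 ± 0.10. The gene that fell was cdc22, the large subunit of ribonucleotide reductase, at -0.82 ± 0.16 and -0.83 ± 0.16; like mcm3 at 0.29 ± 0.08 in STF6, it is named after its values were seen. Without T4A replicate 2, cdc22 stood at -0.54 ± 0.07 and -0.55 ± 0.07 and passed in both mutants. The STF6 call of mcm3 was lost without STF6 replicate 1 or 2. Without T4A replicate 2 the number of higher S phase genes was 8 in STF6. The part of cell cycle position in the histone levels was not tested.

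Of 14 genes of mitosis and the M–G1 transition, 1 was higher and 2 were lower in STF6, and 3 were higher and 2 were lower in STF9, with medians of -0.09 and -0.17. The kinase gene fin1 rose by 0.41 ± 0.12 and 0.55 ± 0.12. mid2, an anillin-like septum protein, fell by 0.43 and 0.47 on the log2 scale (SE 0.16 in both). Without T4A replicate 2 the fall of mid2 was smaller. It was then -0.14 ± 0.07 in STF6, which did not pass (edgeR adjusted p = 0.0887), and -0.17 ± 0.07 in STF9, which did (adjusted p = 0.0314). The mid2 calls held under 7 and 9 of 13 alternatives, and both were lost without any single library of the mutant compared. In STF9 cdc15 rose by 0.25 ± 0.09, a call held under 6 of 13 alternatives, lost without any single STF9 library, with a value of 0.16 without T4A replicate 2. plo1, named after its values were seen, rose by 0.36 ± 0.14 in STF9, held under 4 of 13, and passed without T4A replicate 3 alone among the libraries left out; it was 0.23 ± 0.10 without T4A replicate 2, where it did not pass. The STF6 call of fin1 held under 9 of 13 and was lost without any single STF6 library. With a library left out, 0 to 3 were higher and 1 to 6 lower in STF6, and 1 to 4 were higher and 0 to 6 lower in STF9; the 6 in each came without T4A replicate 3, and the 0 lower without STF9 replicate 3. Markers of meiosis were low in every library: 8 genes summed to 9.19 to 11.2 CPM in T4A, 11.1 to 13.5 in STF6 and 11.6 to 13.5 in STF9. Of the 6 that could be tested, each at 5.77 CPM or less on average in T4A, 2 were higher, spn5 and bqt1, and 1 was lower, mei4, in both mutants, with medians of 0.07 and 0.42. The log2 difference of spn5 was 2.36 in STF6 and 2.17 in STF9, from a mean of 0.812 CPM in T4A. It passed under all 12 alternatives that could test it in each mutant. mei4 differed by -0.83 and -0.82 and passed under all 13. The call of bqt1 held under 7 of 12 alternatives in each mutant. Its log2 difference of 1.21 in STF6 and 1.22 in STF9 ran from 0.81 to 1.81 and from 0.90 to 1.83 with a library left out. The bqt1 call was lost in both mutants without T4A replicate 1. In STF6 it was also lost without STF6 replicate 1 or 3, and in STF9 without any single STF9 library. Neither spn5 nor bqt1 could be tested with the filter of 1 CPM, so no marker was higher there. Their part in the histone results was not tested.

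Antisense transcripts of histone genes were near the limit of detection. The transcript annotated as hta1-antisense-1 (SPNCRNA.1194) had 16 to 31 counts per library, with means of 0.924, 1.32 and 1.14 CPM in T4A, STF6 and STF9. Neither difference passed (0.51 ± 0.24 and 0.31 ± 0.25, edgeR adjusted p = 0.111 and 0.332). hhf3-antisense-1 (SPNCRNA.1611) had 1 to 8 counts and was not tested. The library kit was stranded, but how strand was used in counting is not given in the sources used here, so sense and antisense reads may not have been kept apart.

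Over the 9 libraries, the genes whose profile lay closest to the mean profile of the 10 histone genes were sdh2, which encodes the iron-sulfur subunit of succinate dehydrogenase, SPAC20G8.04c, vps1, npp1 and pan2. Their root mean square distances were 0.0306 to 0.0402 log2 units, beside a median of 0.197 over 3388 other genes, those whose log2 CPM averaged 5 or more. These distances share the same libraries and scaling and are given as a description. Among the histone genes themselves hht3 lay closest to the mean profile, at 0.0264, and htb1 lay farthest, at 0.209, farther than 1885 of the 3388 other genes.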

How the data were processed

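Raw counts per gene and the authors' DESeq2 tables were used. The authors deposited whole-number counts for the 9 libraries, with log2 fold changes, their standard errors, a test score, p-values and adjusted p-values, and mean normalised signal, per the file headers. HISAT2 2.1.0 and HTSeq 0.10.0 are named, with SAMtools, DESeq2 and build ASM294v2, in the submitters' processing notes. Not given in the sources used here are the annotation, the use of strand and the handling of multiply mapped reads. For 5 of the 10 histone genes, and for 2547 of all 6986 features, the authors' overall mean is not between their own group means. Their table may therefore rest on more libraries than these 9.

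From the 6987 lines, 1 that repeated an identifier and had no counts was dropped. Counts were fitted with edgeR 4.0.16 (R 4.3.3, TMM scaling, filterByExpr, quasi-likelihood F test) in 1 model of all 9 libraries with group as its term, after a check on simulated data; an adjusted p under 0.05 was a call. Log2 CPM used a prior count of 2. Alternatives were RLE scaling, library size alone, no filter, a filter of 1 CPM in each library, the DESeq2 1.42.0 Wald test, a replicate block, only the 6 libraries compared, and each library left out. The replicate pairs all differed beyond counting noise. At this depth counting error is small for these genes, and the limit is the spread between 3 libraries a group.

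Named were all 10 histone genes, up to 4 genes per list with the smallest p in either mutant, annotated antisense features and the 5 nearest profiles; other list genes are marked where they are named. Members and lists were chosen with earlier results of these data known. Neighbours come from RefSeq ASM294v3, a later build, so no coordinates or sequences are given, and promoter sequences were not used here. Ratio comparisons were added to the planned sums and shares. The values of 1 listed gene are not reported here.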

Additional observations from a re-analysis of the deposited data

How the results depend on the processing

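The rise of htb1 against T4A passed under all 13 alternatives in each mutant; the other histone calls did not. Against T4A, the count of higher histone genes in STF6 (4) was 8 with library size alone and 1 to 7 with a library left out; in STF9 (1) it was 5 with library size alone, 2 with the replicate block (htb1 and pht1) and 1 to 5 with a library left out. The call of hta1 in STF6 was also lost with RLE scaling and with only 6 libraries. The block was only tried: same-numbered libraries did not deviate together (r from -0.31 to 0.38), 2 of 9 libraries correlated best with their own number, and it changed no other histone call. Over all features, leaving out a library gave 745 to 1410 higher in STF6 (1141 in the full fit) and 807 to 1645 higher and 814 to 1528 lower in STF9 (1368 and 1265). Between the mutants, DESeq2 called 1 feature lower and the fit of only 6 libraries called 7 higher and 10 lower, none of them a histone gene. The scalings moved the median of all features by at most 0.059 log2 units.

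Signs of histone differences near 0 changed, and no histone value with a changed sign passed. In STF6, hht1 was -0.014 with RLE and -0.010 with DESeq2, and with a library left out it ran from -0.062 to 0.127, hht2 from -0.055 to 0.123 and hhf3 from -0.013 to 0.193. The hhf3 value of 0.193, without T4A replicate 2, kept its sign and passed (edgeR adjusted p = 0.0202). In STF9, hht2 and hta2 were -0.032 and -0.030 with RLE, -0.028 and -0.026 with DESeq2, -0.0038 and -0.0017 with at least 1 CPM, and -0.0073 and -0.0050 with 6 libraries. Library size alone gave hht1 0.016, hhf1 0.060 and hhf3 0.059; no filter gave hhf1 0.0024 and the block 0.00019. With a library left out, STF9 values ran from -0.121 to 0.068 for hht1, -0.090 to 0.087 for hht2, -0.072 to 0.076 for hhf1, -0.084 to 0.121 for hhf3 and -0.079 to 0.107 for hta2. Among regulators and chaperones, ams2 ran from -0.103 to 0.223 in STF6 and from -0.181 to 0.144 in STF9, where library size alone gave 0.027; pob3 in STF6 was -0.0074 with RLE and -0.0041 with DESeq2, and -0.082 to 0.068 with a library left out. Between STF9 and STF6, htb1 ran from -0.043 to 0.014. The causes were not tested. Where a library was left out, its group kept 2 libraries.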
